A study of Mus musculus with 27 samples.

Results

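The interferon-stimulated genes examined here are 44 genes that type I or type II interferon is known to induce, taken by gene name from the 54532 genes of both count tables. They were sorted by role into 4 IFIT proteins, 3 genes of the ISG15 system, 11 antiviral enzymes and nucleic acid effectors, 2 Mx GTPases, 3 cytosolic RNA sensors, 4 transcription factors, 9 GTPases of the IRG and GBP families and 8 others. All 44 had rows in both experiments. The samples were B cells of C57BL6 wild-type mouse spleen, obtained by magnetic depletion of other cells and cultured for 3 h. They were left unstimulated, given the bacterial lipid LPS, a T-independent stimulus, or given IL-4 with an antibody that ligates CD40, which stands in for T cell help. Disulfiram (DSF), an aldehyde dehydrogenase inhibitor used against alcohol dependence, or ibrutinib, an inhibitor of the kinase BTK, was present at 1 µM in the inhibitor groups. The stimulated groups without inhibitor received the vehicle, DMSO. The paper's name for the unstimulated group also holds DMSO, although the titles of those samples name no vehicle. Experiment 1 had 4 libraries in each of 5 groups (unstimulated, LPS, LPS with DSF, IL-4+anti-CD40, and IL-4+anti-CD40 with DSF). Experiment 2 had 1 library in each of 7 groups, the same 5 and both stimuli with ibrutinib. The depletion leaves every B cell subset of the spleen in 1 population, and the labels do not say whether replicates came from separate mice, so p-values measure the spread between these libraries, which may be technical.

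Interferons are secreted proteins that bind paired receptor chains and, through the kinases JAK1, TYK2 and JAK2, activate the STAT transcription factors. Type I interferon leads to a complex that holds STAT2 and IRF9 and binds the interferon-stimulated response element (ISRE), whereas type II interferon acts mainly on gamma-activated sites (GAS). LPS reaches this pathway when TLR4 signals through the adaptor TRIF to the kinase TBK1 and the transcription factor IRF3, which switches on interferon beta, and the induced genes encode proteins that sense, bind or degrade viral nucleic acids, restrict intracellular pathogens or feed back on the pathway.

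The members lay on 15 chromosomes of the mouse genome (mm10), and 21 of them lay in 8 clusters with gaps under 500 kb between neighbours. Ifit2, Ifit3, Ifit3b and Ifit1 occupied chromosome 19 from 34550694 to 34650009, and Gbp5, Gbp7, Gbp3 and Gbp2 occupied chromosome 3 from 142493978 to 142638008. RefSeq promoter windows (GRCm38.p6, 250 bases before to 50 bases after the gene start) were matched by symbol for 35 of the 44. The letters GAAANNGAAA were searched on both strands as the core of the ISRE. They were found for 21 of these 35 genes (60.0%), against 1079 of all 27025 genes with a window (3.99%). A gene with several windows counted once, if any of them held the letters. The GAS letters TTCNNNGAA were found for 11 of 35 (31.4%), against 9.55% of all genes with a window. A match describes the letters only. The stretches below, each 30 bases and read 5′ to 3′ on the strand of the gene, belong to members on which the results turn, and capitals mark the ISRE letters or their reverse complement. The stretches of Ifit3 and Ifit3b were identical, and reads of these near copies, and of Igtp and Irgm2, which overlap each other on chromosome 11, may not be separable.
Ifit1, chr19:34640785-34640814, plus strand: TTTCACTTTCcagtctcagTTTCAGTTTCt
Ifit3, chr19:34583397-34583426, plus strand: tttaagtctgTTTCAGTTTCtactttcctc
Ifit3b, chr19:34607793-34607822, plus strand: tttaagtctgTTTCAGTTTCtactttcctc
Isg15, chr4:156200871-156200900, minus strand: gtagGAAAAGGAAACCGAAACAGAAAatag
Rsad2, chr12:26456553-26456582, minus strand: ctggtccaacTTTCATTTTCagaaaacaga
Slfn5, chr11:82951937-82951966, plus strand: ccttcaaagtGAAAAAGAAAaaaaaaaaag
Stat2, chr10:128270266-128270295, plus strand: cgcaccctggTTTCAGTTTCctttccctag
Irgm1, chr11:48871428-48871457, minus strand: gtttcaaGAAATAGAAACCGAAActgattc
Gbp3, chr3:142559992-142560021, plus strand: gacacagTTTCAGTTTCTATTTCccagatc
Gbp5, chr3:142496759-142496788, plus strand: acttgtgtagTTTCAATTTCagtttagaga
Gbp7, chr3:142530273-142530302, plus strand: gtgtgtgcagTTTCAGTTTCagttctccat
Gbp2, chr3:142620594-142620623, plus strand: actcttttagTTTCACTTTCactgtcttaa
Bst2, chr8:71537580-71537609, minus strand: attccagGAAAATGAAACTGAAAggctgca

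Total counts ran from 17804851 to 23632992 per library in experiment 1 and from 16049295 to 24619776 in experiment 2. All 7 B cell markers had counts in every group and summed to 3380 to 8670 CPM in experiment 1. Markers of other cells were present too, with 9 myeloid markers at 353 to 862, 7 plasmacytoid dendritic cell markers at 127 to 601, 8 neutrophil markers at 11.8 to 63.1, 9 T cell markers at 21.5 to 44.9 and 6 NK cell markers at no more than 5.71. The 6 erythroid markers summed to 1.28 to 15.5 CPM. The plasmacytoid dendritic cell list includes Bst2, itself a member, at a mean of 31.7 CPM unstimulated and 228 with LPS. Its sums therefore move in part with the members. Before the comparisons, 1 feature of experiment 1 bears on every level given without LPS. In the unstimulated group, replicates 3 and 4 both lay above replicates 1 and 2 for 42 of the 44 members, with a median difference of 1.12 on the log2 scale, where 34.9% of all genes did so. The same held for 43 members under IL-4+anti-CD40 alone (29.8% of all genes) and for 42 when DSF was added (20.7%). With LPS the replicates lay closer together, with a median difference of -0.09. Replicates 3 and 4 both lay below 1 and 2 for 29 members there and above for 0 (20.7% of all genes above). With LPS and DSF both lay above for 14 members and below for 0 (16.5% of all genes above), with a median of 0.03. Shares of all genes below were not taken. Other genes separated these libraries too, among them the haem oxygenase gene Hmox1 at 63.5, 66.5, 4.67 and 5.56 CPM (counts scaled to the library size) in the unstimulated libraries and 10.1, 18.2, 131 and 257 in the IL-4+anti-CD40 libraries. The labels name no batch that divides the replicates, and the part of this split in the results below was not tested beyond the fits on each replicate pair.

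**Figure D1:**
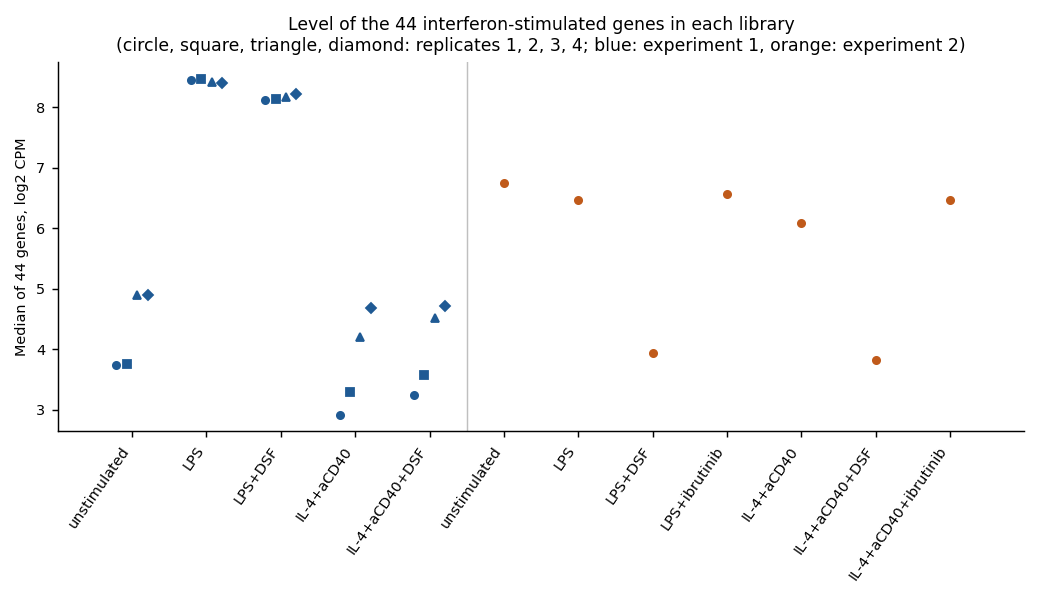
Median log2 CPM over the 44 interferon-stimulated genes in each of the 27 libraries (points), by group and experiment. The LPS libraries of experiment 1 sit at 8.40 to 8.47, above the unstimulated libraries at 3.74 to 4.89, while in experiment 2 the unstimulated library sits at 6.75 and the LPS library at 6.46.

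LPS raised all 44 genes over unstimulated cells in experiment 1. The test was edgeR's quasi-likelihood test on the 8 libraries with Benjamini-Hochberg adjustment over all genes tested, called at an adjusted p under 0.05, and 29.6% of all genes were called higher. The median log2 fold change of the members was 3.86, against -0.05 over all genes, and it ran from 1.39 to 6.87. No member was called lower (33.3% of all genes, 0 members at an unadjusted p under 0.05 and 0 by DESeq2). In replicates 1 and 2 alone all 44 were again called higher and 0 lower (32.8% and 33.8% of all genes) with a median of 4.57, as in replicates 3 and 4 alone (35.2% and 37.5%) with a median of 3.24. Because the samples are bulk RNA, a change in the share of cells and a change in RNA per cell cannot be told apart here or below.

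The IFIT proteins, which bind viral RNA that lacks host cap methylation, had the highest median by role, at 6.21. Ifit1 was at 2.83, 4.12, 9.18 and 7.53 CPM in the unstimulated libraries and at 709, 793, 729 and 681 with LPS, and it had the largest log2 fold change of the members, 6.87 (SE 0.390, adjusted p = 2.12e-06, edgeR). Ifit3 went from 10.6, 11.7, 29.4 and 27.7 CPM to 1260, 1380, 1280 and 1170. All 4 LPS libraries of both genes were far above the unstimulated ones. The ISG15 system, a ubiquitin-like modifier with its ligase Herc6 and its protease Usp18, had a median of 5.27. Isg15 itself was at 3.32, 3.58, 9.10 and 10.5 CPM without stimulus and 396, 352, 436 and 395 with LPS. Usp18, which also dampens the type I interferon receptor, went from 4.53, 5.90, 15.5 and 16.5 to 434, 451, 438 and 403 CPM (log2 fold change 5.27, SE 0.451, adjusted p = 1.85e-05).

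The antiviral enzymes and nucleic acid effectors spanned the widest range, with a median of 4.10. Rsad2, the radical SAM enzyme viperin that makes a chain-terminating nucleotide, went from 4.15, 5.97, 11.5 and 11.3 CPM to 567, 566, 587 and 551, a log2 fold change of 6.03 (SE 0.355). Samd9l, a translation inhibitor, had the smallest rise of all 44 and had the highest mean CPM of this role, which is not corrected for length. It was at 194, 198, 481 and 438 CPM without stimulus and 957, 945, 869 and 859 with LPS (1.39, SE 0.314, adjusted p = 0.00424), so its unstimulated replicates differed among themselves by more than the LPS ones. Mx1, of the dynamin-like Mx GTPases, went from 7.43, 8.86, 27.1 and 26.7 CPM to 764, 798, 657 and 638 (5.27, SE 0.490). Transcript levels do not show whether these cells make a working Mx protein, and Mx2 is annotated as a polymorphic pseudogene. The RNA sensor gene Ddx58, which encodes RIG-I, went from 63.5, 62.7, 134 and 127 CPM to 683, 701, 633 and 629 (2.69, SE 0.283).

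The 4 transcription factors rose least as a group, with a median of 2.04. Irf7, which amplifies interferon alpha transcription, had 4.07, whereas Irf9, the DNA-binding subunit of the complex with STAT2, had 1.42 (SE 0.186). Stat2 was at 92.4, 101, 138 and 133 CPM without stimulus and 696, 707, 621 and 642 with LPS (2.45, SE 0.153, adjusted p = 3.64e-06). The IRG and GBP GTPases, which act on vacuoles holding intracellular pathogens, had a median of 3.10. Irgm1 went from 48.8, 52.3, 86.2 and 81.8 CPM to 982, 1020, 975 and 942 (3.79, SE 0.217), while Gbp3 rose by 1.54. Of the 8 others, Parp14, an ADP-ribosyltransferase, was the most abundant by counts and went from 123, 124, 164 and 143 CPM to 2370, 2390, 2150 and 2170 (3.96, SE 0.126, adjusted p = 1.05e-07).

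**Figure D2:**
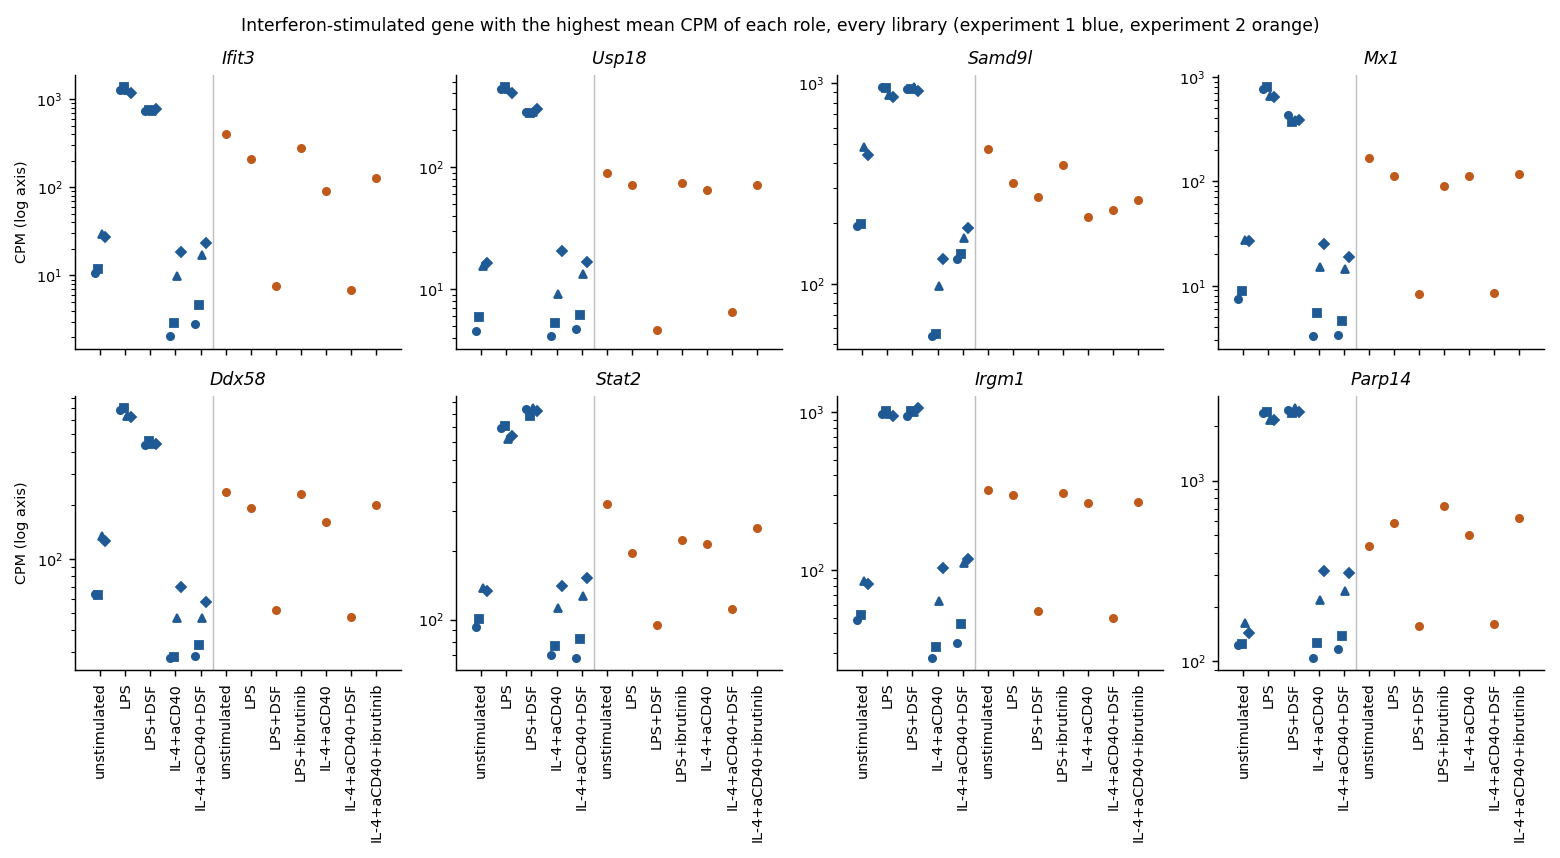
CPM on a log axis in each library (points, experiment 1 in blue and experiment 2 in orange) for the member with the highest mean CPM in each of the 8 roles, by group (CPM is not corrected for gene length). In experiment 1 the LPS and LPS with DSF libraries lie above the unstimulated libraries in every panel, Ifit3 for example at 1170 to 1380 CPM with LPS against 10.6 to 29.4 unstimulated.

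Levels between genes were compared per length, on the deposited FPKM scale. With LPS, Ifit3 stood first at 689 ± 50.9 FPKM (SD, n = 4), followed by Isg15 at 493 ± 42.2 and Ifi47 at 364 ± 8.12. Ifit1 at 259 ± 18.0, the OAS-like gene Oasl1 at 256 ± 6.52 and the E3 ligase gene Trim30a at 252 ± 12.9 followed and differed by less than their spread. The lowest were Iigp1 at 1.48 ± 0.0953 FPKM and Ifi44 at 1.22 ± 0.189.

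IL-4+anti-CD40 did not raise these genes as LPS did. Of 43 members tested against unstimulated cells, 1 was called higher and 8 lower, where 30.4% and 32.1% of all genes were called, and the median log2 fold change was -0.45. The gene called higher was Ifi35, a small leucine zipper protein, at 39.6, 40.1, 41.2 and 43.6 CPM unstimulated and 61.0, 65.9, 72.4 and 86.1 after the stimulus (0.79). The genes called lower were the nucleotide kinase gene Cmpk2 (-2.31), the ISG15 ligase gene Herc6 (-1.97), Samd9l (-1.96), Ddx58 (-1.18) and the guanylate-binding proteins Gbp3 (-1.72), Gbp7 (-1.67), Gbp5 (-0.68) and Gbp2 (-0.54). Cmpk2 was at 8.26, 8.98, 38.4 and 36.2 CPM unstimulated and 1.71, 3.00, 5.43 and 8.78 with IL-4+anti-CD40, so 1 stimulated library reached the unstimulated range. Within replicates 1 and 2 alone, 5 members were called higher and 26 lower (33.5% and 36% of all genes), and within replicates 3 and 4 alone 8 and 21 (35.3% and 36.9%). In the same comparison the myeloid markers summed to 822 to 862 CPM unstimulated and 353 to 397 with the stimulus, and the plasmacytoid dendritic cell markers to 229 to 238 and 127 to 170. Their part was not tested. Iigp1 was not tested for low counts.

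Set directly against IL-4+anti-CD40, LPS gave higher levels of all 44 genes (22.3% of all genes were called higher and 17.3% lower), with a median log2 difference of 4.14. The largest was that of Ifit3b, a near copy of Ifit3 for which the assignment of reads is uncertain. It was at 0.380, 0.571, 3.17 and 4.98 CPM with IL-4+anti-CD40 and 369, 394, 365 and 352 with LPS (7.36). The smallest median by role was that of the transcription factors, at 2.18. Irf9 was already at 84.1, 88.3, 137 and 182 CPM with IL-4+anti-CD40.

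The ligands were at the limit of detection. Interferon beta (Ifnb1) had 0 counts in all 4 unstimulated libraries, which allows up to 3 counts each, and 18, 16, 14 and 14 counts with LPS, at least 6.67-fold higher against a floor of 3 counts per library. With LPS and DSF it had 15, 19, 19 and 17 counts, a log2 difference from LPS of 0.45 (SE 0.293, adjusted p = 0.174, edgeR) that did not pass the test. Ifna1, an interferon alpha gene whose reads can be shared with its close relatives, had 5, 14, 7 and 4 counts with LPS and 1, 1, 0 and 0 with LPS and DSF, and Ifna4 had 4, 6, 3 and 4 against 1, 3, 0 and 2. Neither had enough counts to be tested. The 3 h time point therefore gives transcript counts of ligands in single or low double digits beside CPM values of their target genes such as 681 to 793 for Ifit1.

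Of 14 genes of the interferon receptors and JAK-STAT signalling, LPS raised 6 and lowered 4, or 5 and 6 when scaled by total counts. Without that rescaling, 29.6% of all genes were called higher and 33.3% lower. The feedback inhibitors Socs1 and Socs3 rose by 3.77 and 5.16, whereas the receptor chain Ifnar1 decreased by 0.70 on the log2 scale. Of 60 further interferon-stimulated genes, 53 of the 58 tested were higher with LPS and 0 lower, with a median of 2.41. The chemokine gene Cxcl10, at 0.700 to 3.24 CPM unstimulated and 737 to 828 with LPS, had 8.62, and the chemokine gene Ccl5 had 4.89.

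DSF moved these genes in both directions in LPS-stimulated cells of experiment 1. Compared with LPS alone, 13 members were called higher and 26 lower, where 35.1% and 36% of all genes were called, and the median log2 fold change was -0.26. The changes ran from -1.10 to 0.91, and for Gbp3 and Irf9 they were large beside the induction, at -0.88 and 0.91 against rises with LPS of 1.54 and 1.42. All 44 genes stayed above unstimulated cells with LPS and DSF (median 3.43, where 34.3% of all genes were called higher and 37.3% lower). When libraries were scaled by total counts, which shifted the median of all genes by -0.21, the counts were 6 higher and 31 lower (24.5% and 47.2% of all genes). When the spread was estimated over all 20 libraries, 4 stayed called higher (Irf9, Irf1, Bst2 and Gbp2) and 3 lower (Gbp3, Gbp5 and Gbp7), where 27.5% and 29.2% of all genes were called.

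Of the 4 transcription factors 3 rose, while most effectors called were lower. Irf9 was at 343, 355, 331 and 340 CPM with LPS and 590, 585, 590 and 602 with LPS and DSF, a rise of 0.91 on the log2 scale with no overlap between groups. Irf1, the factor most directly induced by type II interferon, went from 355, 365, 347 and 334 CPM to 570, 584, 611 and 643 (0.89), and Stat2 from 696, 707, 621 and 642 to 838, 785, 847 and 821 (0.42). The remaining member of this role, Irf7, fell by 0.34. The rises of Irf9, Irf1 and Stat2 stayed called when scaled by total counts, at 0.70, 0.69 and 0.21.

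All 4 IFIT genes fell, with a median of -0.54. Ifit1 went from 709, 793, 729 and 681 CPM to 371, 401, 383 and 406 (-0.79), and Ifit3 from 1270 ± 89.0 to 755 ± 19.8 CPM (SD, n = 4; -0.64). The ISG15 system fell in all 3 genes (median -0.46), as did the RNA sensors (median -0.46). Ddx58, for example, went from 683, 701, 633 and 629 CPM to 437, 461, 440 and 442. Of the Mx GTPases, Mx1 fell by 0.74 and Mx2 was not called.

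The antiviral enzymes were divided, with 3 higher and 6 lower of 11. Rsad2 went from 568 ± 14.9 to 979 ± 25.4 CPM (SD, n = 4; 0.90), the largest rise among the effectors, with every DSF library above every LPS library, as for 25.5% of all genes. Cmpk2, its neighbour on chromosome 12, went the other way, from 253, 248, 254 and 249 CPM to 194, 187, 190 and 202. The small rises of Samd9l (0.16), Irgm1 (0.15) and the chaperone gene Rtp4 (0.19) turned to -0.05, -0.06 and -0.02 when scaled by total counts, so their direction depends on the scaling.

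The guanylate-binding proteins of the chromosome 3 cluster were among the members that moved furthest, and not all in 1 direction. Gbp5, which promotes inflammasome assembly, went from 379, 413, 371 and 351 CPM to 184, 167, 171 and 163 (-1.03). Gbp7 went from 172, 176, 155 and 146 to 84.1, 74.5, 74.0 and 79.8 (-0.94), and Gbp3 from 227, 243, 230 and 220 to 117, 114, 117 and 113 (-0.88). The DSF groups of all 3 genes lay wholly below the LPS groups, as for 38.8% of all genes. Gbp2, the fourth gene of the cluster, went from 148, 171, 161 and 148 to 176, 179, 183 and 200 CPM (0.35). Each of the 4 genes had a window that held ISRE letters.

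Slfn5, a schlafen family protein, had the largest fall of the 44, from 1290, 1220, 1200 and 1150 CPM to 539, 522, 497 and 535 (-1.10, SE 0.0449, adjusted p = 5.55e-17). Bst2, the membrane protein tetherin that holds budding virions on the cell, rose by 0.59. ISRE letters stood in the windows of 13 of 21 members called lower (61.9%) and 6 of 11 called higher (54.5%), counting those with a window. Members not called were Oas1a, Oasl2, Mx2, Igtp and Iigp1.

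**Figure D3:**
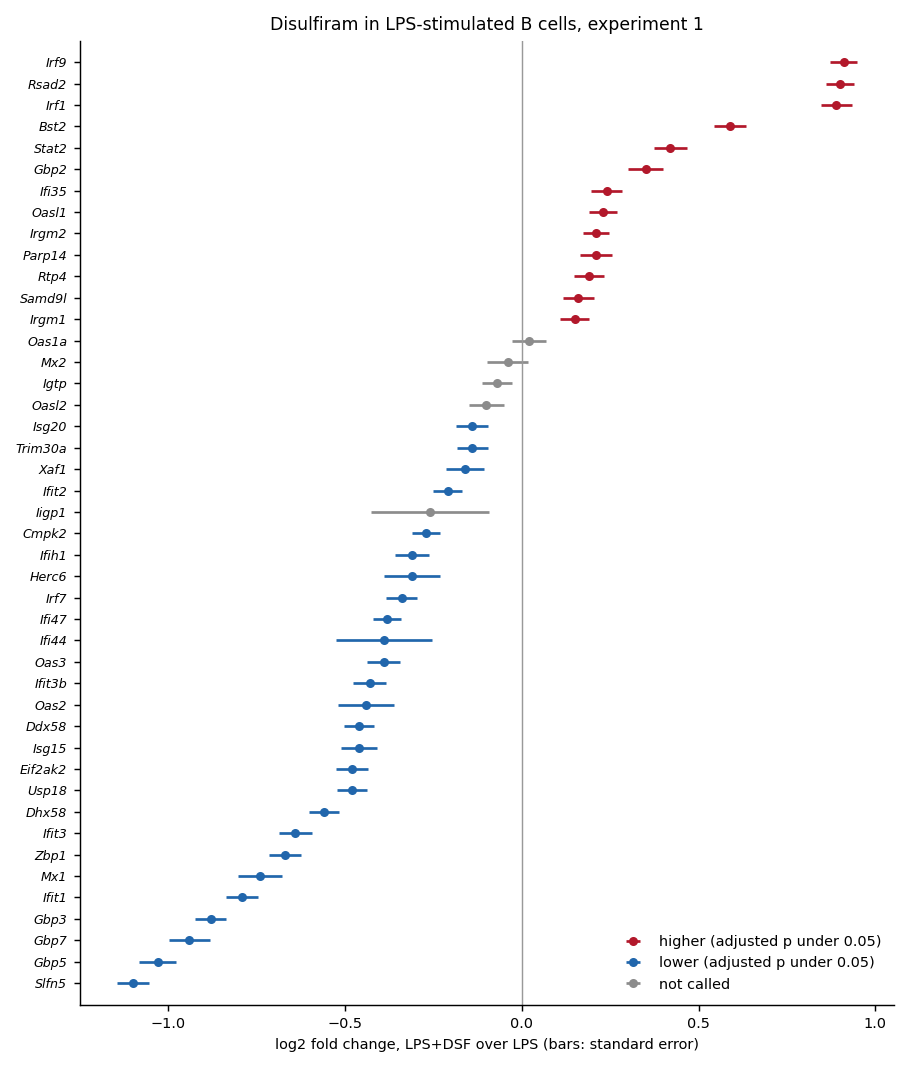
Log2 fold change of LPS with DSF over LPS in experiment 1 for the 44 genes, sorted by value, with bars of 1 standard error (edgeR) and colours for members called higher, called lower or not called. Values run from -1.10 for Slfn5 to 0.91 for Irf9, with the 4 IFIT genes below 0 and Irf1, Irf9 and Stat2 above 0.

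The genes around the pathway also went both ways with DSF in LPS. Among receptors and signalling genes 5 were higher and 6 lower, or 3 and 9 by total counts. Over all genes 35.1% were called higher and 36% lower, or 24.5% and 47.2% by total counts. These shares also stand beside the list counts below. Ifnar1 went from 87.6, 93.5, 95.9 and 93.1 CPM to 181, 185, 187 and 182 (1.10), so that its groups did not overlap. Of the 22 tested genes upstream of interferon 9 were higher, among them the kinase gene Tbk1 (1.01), and 12 lower, among them the adaptor gene of RNA sensing Mavs (-1.35) and the DNA sensing adaptor gene Tmem173 (-0.94), or 5 and 13 by total counts. Of the 60 further interferon-stimulated genes, 9 were higher and 35 lower of 58 tested (median -0.18), or 8 and 47 by total counts. Cd274, which encodes PD-L1, had the largest rise of them (1.26), and the immunoproteasome subunit gene Psmb10 and Ifi213 had the largest falls (both -0.93).

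Markers of other cells moved as well. The summed CPM of 7 B cell markers was 4750 to 4840 with LPS and 3380 to 3640 with LPS and DSF, and that of 9 myeloid markers 760 to 807 and 517 to 541. The 7 plasmacytoid dendritic cell markers summed to 507 to 529 and 559 to 601, of which Bst2, itself a member, made 222 to 237 CPM with LPS. The part of these shifts in the results was not tested.

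DSF was compared in the same way in IL-4+anti-CD40. Of 42 tested, 5 were called higher and 1 lower, where 30.1% and 31.6% of all genes were called, and the median was 0.37. The 5 were Samd9l (0.90), Bst2 (0.74), Gbp2 (0.73), the exonuclease gene Isg20 (0.65) and Irf1 (0.59), and the 1 was Gbp5 (-0.56). Samd9l was at 54.8, 56.2, 97.3 and 133 CPM without and 133, 141, 170 and 189 with DSF. Gbp5 was at 22.2, 25.8, 29.3 and 30.6 CPM without and 12.8, 16, 21.0 and 22.6 with DSF. In both genes the groups met or overlapped at their edges, because replicates 3 and 4 were higher than 1 and 2 with and without DSF.

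The number called depended on how the replicates were handled. Without IL-4+anti-CD40 replicate 4, 12 members were called higher and 1 lower (30.4% and 31.2% of all genes). With replicates 1 and 2 alone 21 were higher and 4 lower (30.7% and 31.2%), and with replicates 3 and 4 alone 13 and 3 (24.8% and 24.1%). In both pairs, 11 genes were higher (Oasl1, Oasl2, Rsad2, Isg20, Samd9l, Irf1, Irf9, Irgm1, Irgm2, Gbp2 and Bst2) and 2 lower (the RNA-activated kinase gene Eif2ak2 and Gbp5), and 0 were called in opposite directions, where 22.1% of all genes were higher and 21.8% lower in both. Rsad2 shows the pattern, at 2.76, 3.95, 13.2 and 23.7 CPM without and 7.87, 10.4, 38.3 and 48.8 with DSF. Against unstimulated cells, IL-4+anti-CD40 with DSF left 6 members higher and 8 lower (33.4% and 35.3% of all genes), from Rsad2 at 1.69 to Gbp7 at -2.06. With DSF the myeloid markers summed to 439 to 526 CPM and the plasmacytoid dendritic cell markers to 168 to 207, against 353 to 397 and 127 to 170 without it, and their part was not tested.

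The effect of DSF was tested for a difference between the stimuli by the interaction term in a fit over the 16 stimulated libraries. No member had a more positive change with LPS (0 at an unadjusted p under 0.05, 0 by DESeq2), and 3 had a more negative one, where 7.92% and 6.96% of all genes were called. These were Oas2, an oligoadenylate synthetase that activates RNase L (-1.22, SE 0.399, adjusted p = 0.0457), Isg20 (-0.80, SE 0.249, adjusted p = 0.0345) and Gbp3 (-0.71, SE 0.101, adjusted p = 5.97e-05). Isg20 was at 218, 232, 233 and 212 CPM with LPS, 180, 178, 195 and 200 with LPS and DSF, 7.84, 9.23, 13.3 and 18.7 under IL-4+anti-CD40 alone and 12.6, 18.7, 22.0 and 23.2 when DSF was added to it. Gbp3 fell in LPS from the levels given above, while with IL-4+anti-CD40 it was at 20.9, 19.9, 27.4 and 23.5 CPM without and 19.7, 19.8, 21.2 and 20.1 with DSF. Leaving out each of the 16 libraries in turn, Gbp3 kept its call every time, Isg20 in 6 and Oas2 in 3, and the count of more negative members was 1 in 10 of these fits and 21 without IL-4+anti-CD40 replicate 4, where 8.19% of all genes were more positive and 8.23% more negative.

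In experiment 2, LPS did not raise these genes over the unstimulated library. With 1 library a group there is no test, and a change is called where it reaches 2-fold in TMM-normalised CPM with a prior count of 2. The median log2 ratio of LPS over unstimulated was -0.28, with 1 member higher (Isg15, 1.03) and 2 lower (Cmpk2, -1.13, and Ifit3b, -1.08), where 8.73% and 9.79% of all genes passed 2-fold. The same measure taken in experiment 1 as a difference of mean log2 CPM had a median of 3.98. The difference between the experiments ran from 1.41 to 7.66 with a median of 4.04, against 0.03 over all genes. For all 44 members it was at least 1, as for 8.35% of 13861 genes, and the ratio of experiment 2 lay below every pair of LPS and unstimulated libraries of experiment 1, as for 21.1%.

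The difference was largest in the IFIT cluster and Rsad2. Ifit3b had 6.58 in experiment 1 (6.08 to 7.15 over library pairs) and -1.08 in experiment 2. Ifit3 had 6.15 (5.31 to 7.02) and -0.95, Ifit1 7.06 (6.20 to 8.08) and 0.24, Rsad2 6.22 (5.57 to 7.11) and -0.31, and Ifit2 5.57 (4.92 to 6.24) and -0.68. It was smallest for Gbp3, at 1.61 (1.39 to 1.87) and 0.20, followed by Irf9, Gbp2, Irf1 and Samd9l with differences of 1.66, 1.84, 2.06 and 2.15. None of the pair ranges reached the value of experiment 2.

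**Figure D4:**
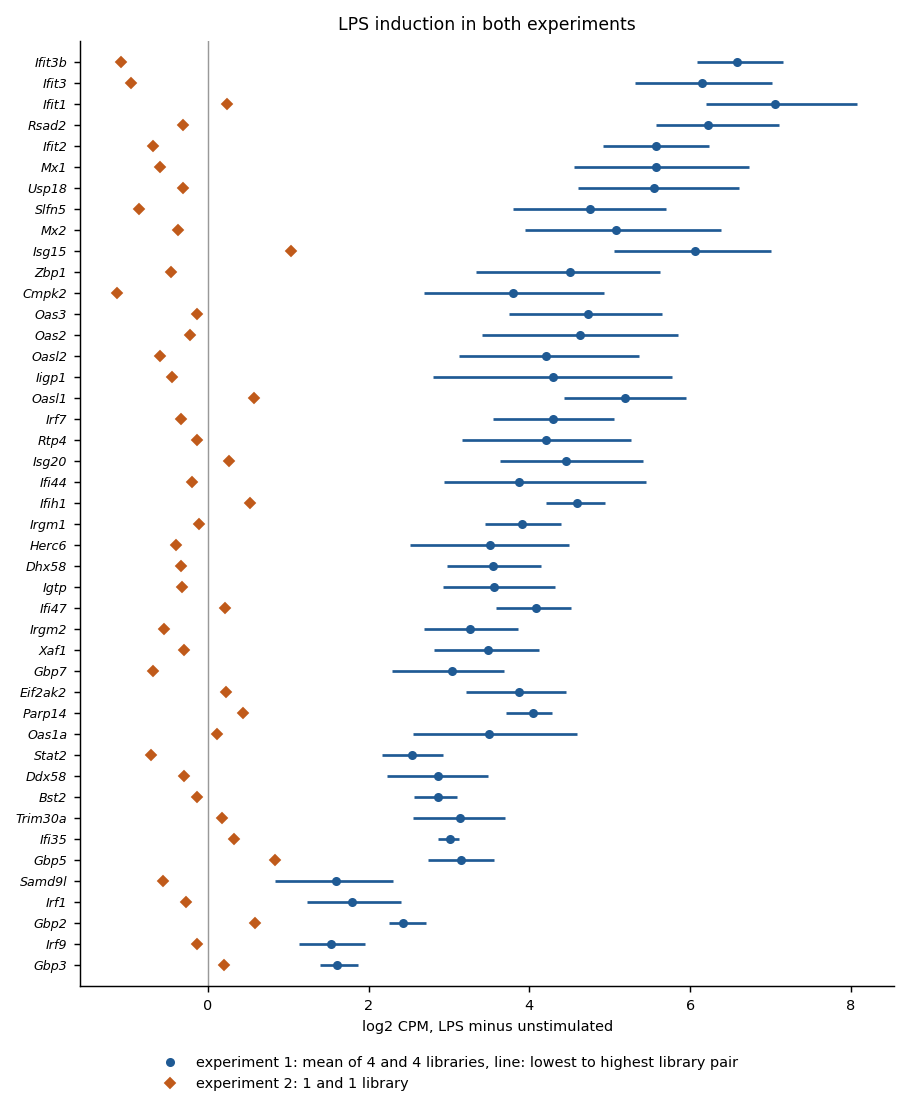
Log2 ratio of LPS over unstimulated for each of the 44 genes in experiment 1 (points, with the range over library pairs as bars) and in experiment 2 (1 library each, other symbol). Every range of experiment 1 lies above the value of experiment 2, from Gbp3 (1.39 to 1.87 against 0.20) to Ifit3b (6.08 to 7.15 against -1.08).

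Both ends of the ratio differed. The unstimulated library of experiment 2 lay above all 4 unstimulated libraries of experiment 1 for 40 of 44 members (25.3% of all genes), with a median fold of 4.03. Its LPS library lay below all 4 LPS libraries for all 44 (40.1% of all genes), with a median fold of 0.238. Ifit3 shows both, at 402 CPM unstimulated and 208 with LPS in experiment 2, against 10.6 to 29.4 and 1170 to 1380 in experiment 1. The tables were normalised separately, so these are levels set across 2 scalings. Other genes did differ between these libraries of experiment 2. Nfkbiz, a TLR target, was at 65.4 CPM unstimulated and 877 with LPS, beside 36.3 to 66.2 and 964 to 988 in experiment 1. The STAT5 target Cish was at 121 CPM with IL-4+anti-CD40 and 3.06 unstimulated, which follows the labels of those libraries. The feedback inhibitor gene Socs1 did not follow experiment 1, at 22.1 CPM unstimulated and 14.6 with LPS against 4.38 to 6.15 and 72.3 to 84.3. The LPS co-receptor gene Cd14 was at 2.59 CPM unstimulated and 1.40 with LPS, against 35.9 to 42.7 with LPS in experiment 1. Cd14 also split the unstimulated replicates of experiment 1, at 30.3, 31.2, 1.36 and 1.75 CPM, so some of them were already near the LPS level. Nfkbiz, Cish, Cd14, Hmox1 and Hspa1a were chosen after their values were seen. Ifnb1 had 3 counts unstimulated, 11 with LPS, 13 with LPS and ibrutinib and 0 with LPS and DSF in experiment 2. In the same order Ifna1 had 0, 16, 6 and 0 counts and Ifna4 had 0, 4, 6 and 1. Myeloid markers summed to 346 CPM in its unstimulated library and 268 with LPS, and plasmacytoid dendritic cell markers to 323 and 267, against 822 to 862 and 229 to 238 in the unstimulated libraries of experiment 1. Of the plasmacytoid dendritic cell sums, Bst2 made 77 CPM unstimulated and 70.3 with LPS, against a mean of 31.7 unstimulated in experiment 1. Neutrophil markers summed to 1.55 CPM in the unstimulated library of experiment 2, against 19.3 to 63.1 in those of experiment 1. Erythroid markers summed to 40.3 against 2.35 to 15.5, T cell markers to 31.1 against 36.6 to 44.9, and NK cell markers to 2.96 against 3.92 to 5.71. B cell markers, at 5990 CPM, lay within the 5630 to 8670 of experiment 1. The part of these markers in the difference was not tested.

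DSF lowered most members in experiment 2 under both stimuli. With LPS, 41 of 44 fell at least 2-fold and 0 rose, where 22.2% and 18.6% of all genes did, and the median log2 ratio was -2.29. The IFIT genes had a median of -4.34. Ifit3 went from 208 to 7.64 CPM (-4.75), Ifit3b from 62.4 to 2.06 (-4.85, 95% counting interval -5.43 to -4.45) and Slfn5 from 221 to 11.4 (-4.26). For Ifit3 and Slfn5, and for other members such as Ifit1 and Mx1, both DSF libraries lay below the other 5 of the experiment. Neither the number of members nor the share of all genes for which this held was taken. The Mx GTPases had a median of -3.29, with Mx1 going from 111 to 8.26 CPM, and the IRG and GBP GTPases one of -2.44. The transcription factors had -0.80, and the members under 2-fold were Irf9 (-0.55), Irf1 (-0.44) and Samd9l (-0.24, interval -0.29 to -0.18). Counting intervals cover counting error only.

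With IL-4+anti-CD40, DSF lowered 36 members at least 2-fold and raised 0 (22.9% and 19.8% of all genes), with a median of -2.14. Ifit1 went from 60.7 to 4.09 CPM (-3.86), Ifit3 from 90.5 to 6.90 (-3.69) and Mx1 from 112 to 8.58 (-3.69), whereas Samd9l was at 215 without and 233 with DSF (0.12). Both libraries with DSF therefore lay below the unstimulated library of that experiment, with medians of -2.41 for LPS and -2.45 for IL-4+anti-CD40, and 39 members at least 2-fold lower in each (23.1% and 21.7% of all genes). With DSF the myeloid markers summed to 114 CPM under LPS and 120 under IL-4+anti-CD40, against 268 and 292 without it, and the plasmacytoid dendritic cell markers to 176 and 215, against 267 and 218. Their part was not tested. In experiment 1 the members with LPS and DSF lay above unstimulated cells. The difference between the experiments in the effect of DSF has 1 library a group on one side and was not tested. Hmox1 was high with DSF in both, at 1400 to 1780 CPM in the DSF libraries of experiment 1 and at 1560 and 1850 in those of experiment 2, whereas the heat shock gene Hspa1a was at 1960 to 3220 and at 7560 and 10300.

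Ibrutinib left these genes close to their level without it. With LPS the median log2 ratio was 0.17, with 1 member at least 2-fold higher, Gbp2, and 0 lower (3.07% and 2.21% of all genes). With IL-4+anti-CD40 the median was 0.24, with Gbp2 and Gbp3 higher and 0 lower (2.3% and 1.64%). Gbp2 went from 44.3 to 102 CPM with LPS (1.20) and from 32.1 to 81.5 with IL-4+anti-CD40 (1.34), and Gbp3 from 39.8 to 94.2 with IL-4+anti-CD40 (1.24). At the same dose and time in the same experiment, Ifit3 was at 279 CPM with LPS and ibrutinib and 7.64 with LPS and DSF, beside 208 with LPS alone.

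**Figure D5:**
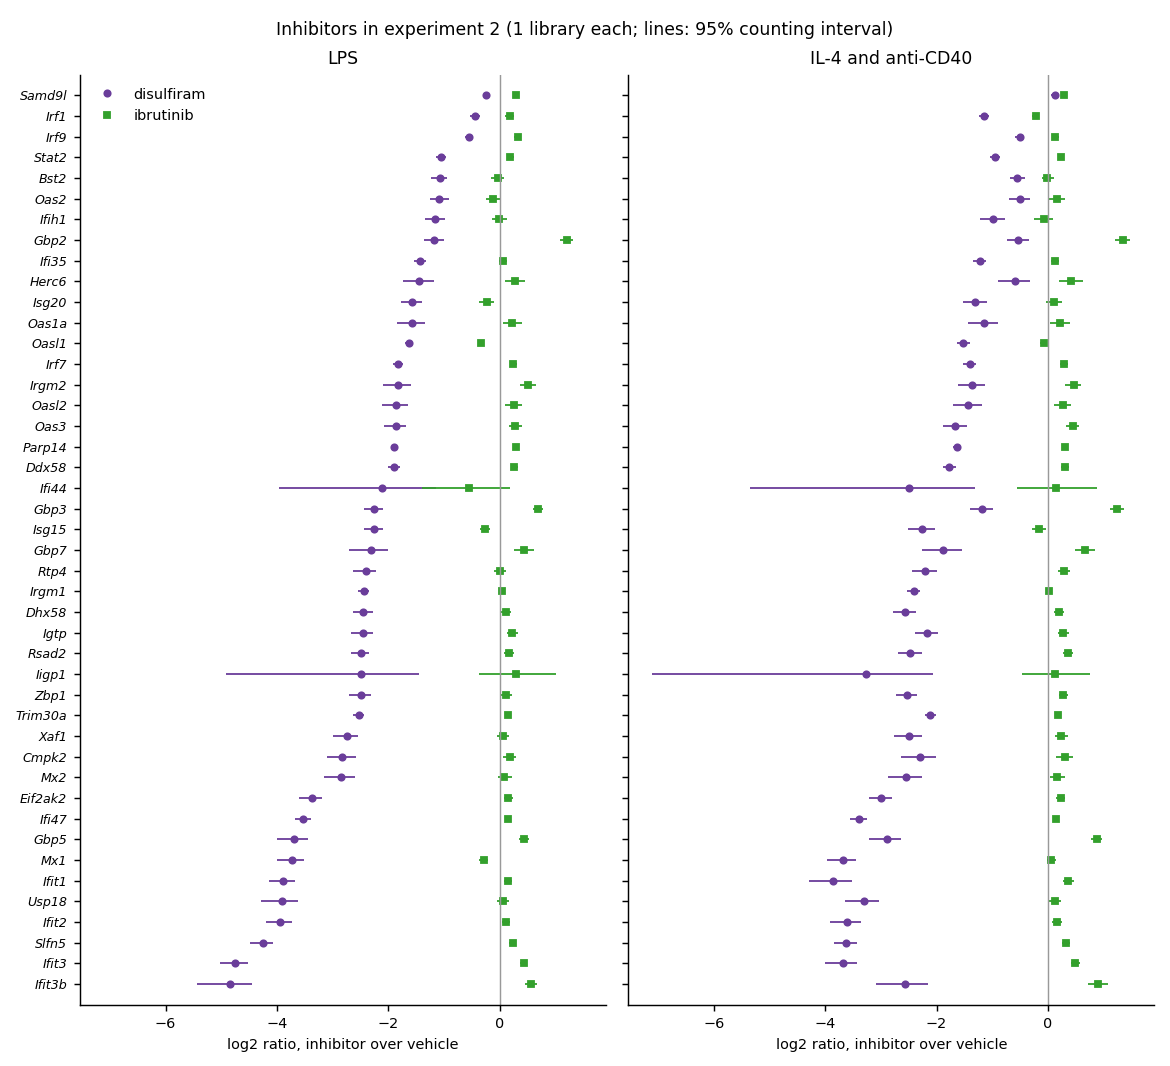
Log2 ratio of each inhibitor over its stimulus alone in experiment 2 for the 44 genes (points, 1 library a group; lines, 95% counting interval), with DSF and ibrutinib in LPS and in IL-4+anti-CD40. Points for DSF centre on -2.29 and -2.14 and reach -4.85, while those for ibrutinib centre on 0.17 and 0.24.

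The stimuli differed little from each other in experiment 2. IL-4+anti-CD40 gave a median log2 ratio of -0.43 over unstimulated, with 0 members at least 2-fold higher and 7 lower (10.8% and 13.6% of all genes), led by Ifit3b (-2.84), Ifit3 (-2.15) and Cmpk2 (-1.98). LPS over IL-4+anti-CD40 gave a median of 0.24, with 4 members at least 2-fold higher and 0 lower (4.92% and 4.05% of all genes), led by Ifit3b (1.76), Gbp3 (1.21) and Ifit3 (1.20).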

How the data were processed

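mRNA of mouse splenic B cells was sequenced by the authors, who trimmed reads with Fastp, aligned them to mm10 with HISAT2 2.0.5 and counted them per gene with featureCounts 1.5.0-p3. The deposited tables hold raw gene counts and, per gene, FPKM values that the authors computed from them. The annotation release and strand setting are not given in the sources used here, so 19 of the 44 members that overlap another gene may share reads with it. Groups came from the labels. 1 gene of the signalling list is not reported here. Members and gene lists were chosen with earlier results of these data known.

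Counts of experiment 1 were tested in R 4.3.3 with edgeR 4.0.16 (TMM, filterByExpr, quasi-likelihood test) on the libraries of each comparison. P-values were adjusted by Benjamini-Hochberg over all genes tested and called under 0.05. CPM are scaled over all 20 libraries, whereas folds come from the fit of each comparison, so small changes can differ between them. Experiment 2, with 1 library a group, is given as log2 ratios of TMM-CPM (prior count 2) where the mean count reached 10. FPKM served to rank levels. The 30 pairs of replicates differed beyond sampling noise (chi-square per gene 2.74 to 81.5). Totals were 17804851 to 23632992 and 16049295 to 24619776 counts. Scripts were tested on simulated data.

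Values in every library are given for the member with the highest mean CPM in each role, which is not a ranking per length, and for the largest called rise and fall in each comparison. Alternatives were DESeq2 1.42.0, a looser and a stricter count filter, total-count scaling, a fold minimum, all 20 libraries in 1 fit, leaving out each replicate, the replicate number as a block, and, chosen after seeing the data, the replicate pairs.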

Additional observations from a re-analysis of the deposited data

Results flagged for a closer look

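The effect of DSF differed between the stimuli for 3 of the 44 genes by the interaction term (edgeR, 16 libraries). It was lower with LPS than with IL-4+anti-CD40 by a log2 difference of -1.22 for Oas2, -0.80 for Isg20 and -0.71 for Gbp3. Of all genes 6.96% were called in that direction, so the count does not set the members apart. Leaving out each library in turn, Oas2 kept its call in 3 fits, Isg20 in 6 and Gbp3 in all 16. Oas2 was at 266, 284, 221 and 213 CPM with LPS and 191, 149, 173 and 156 with LPS and DSF, and at 3.09, 3.71, 10.3 and 14.6 under IL-4+anti-CD40 alone and 8.91, 11.6, 13.9 and 18.4 when DSF was added to it. At an unadjusted p under 0.05, 8 members had a more negative change with LPS, and DESeq2 called 2. No share of all genes was taken for these counts. In 85 groups of 4 libraries examined for 17 genes, 0 libraries stood apart from the other 3 by Dixon's criterion. That criterion looks for a single library apart from the rest. It cannot show the split between pairs of replicates described above, and nothing is concluded from it about the libraries.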

How the results depend on the processing

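LPS raised 44 members under every alternative run except a minimum of 10 counts in every library, which tested 42 and called 42. Their median was 4.57 with replicates 1 and 2 alone, and over IL-4+anti-CD40 and for LPS with DSF over unstimulated it was 5.03 and 4.30. Over all other genes the replicate numbers do not pair the libraries by deviations from group means (r -0.09 to 0.246, 5 of 40 pairs over 0.1, 6 of 20 libraries closest to their own number). Over the 44 members alone r ran from -0.383 to 0.856, with 19 of 40 pairs over 0.1 and 10 of 20 libraries closest to their own number, and all 4 pairs of IL-4+anti-CD40 with and without DSF were between 0.356 and 0.856. With the replicate number as a block, higher and lower members were 2 and 22 for IL-4+anti-CD40, 21 and 4 for DSF in it, and 10 and 16 for both over unstimulated. With the replicate pairs as a block of 2 levels they were 2 and 23, 18 and 4, and 11 and 18. With replicates 1 and 2 alone they were 5 and 26, 21 and 4, and 12 and 21, with 1 and 25 for the interaction and a DSF median in LPS of -0.35. With replicates 3 and 4 alone they were 8 and 21, 13 and 3, 13 and 17, and 2 and 14, with a median of -0.15. The cause was not tested. Shares of all genes were not taken for the block fits, nor for the interaction in the replicate pairs. Counts in this section that have no share above cannot be set against all genes.

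Total-count scaling gave DSF in LPS 6 higher and a median of -0.47, with Samd9l at -0.05, Irgm1 at -0.06 and Rtp4 at -0.02. DSF in IL-4+anti-CD40 had 2 lower and both over unstimulated 3 higher. The experiment 2 medians were -0.43 for LPS, -0.58 for IL-4+anti-CD40, -2.49 for DSF in LPS, and -2.77 and -2.73 for LPS and IL-4+anti-CD40 with DSF over unstimulated. LPS then had 0 higher and 4 lower and IL-4+anti-CD40 12 lower, and the median difference between experiments was 3.90. Keeping genes of any count gave a DSF median of -0.32 in LPS and 1 and 22 for the interaction. Fitting all 20 libraries gave 4 and 3 for DSF in LPS and 1 lower for the interaction. A 2-fold minimum left 0 higher with IL-4+anti-CD40, 0 and 2 for DSF in LPS, 0 and 0 for DSF in IL-4+anti-CD40, and 1 lower for the interaction. Leaving out 1 library gave 12 to 13 higher, 25 to 28 lower and a median of -0.31 to -0.23 for DSF in LPS. It gave 4 to 12 higher and 1 to 2 lower for DSF in IL-4+anti-CD40 (12 without IL-4+anti-CD40 replicate 4), 6 to 11 lower for IL-4+anti-CD40, 2 to 8 higher with DSF over unstimulated (3 and 2 without replicates 3 and 4 of that group) and 1 to 21 for the interaction. Of the values of single members, 3703 kept their call and 168 lost it. The other 3, those of Samd9l, Irgm1 and Rtp4 by total counts, changed sign and were no longer called. At these depths Ifnb1, Ifna1 and Ifna4 rest on under 20 counts a library.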
